A study of Mus musculus with 12 samples.

Results

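The comparison described here is that of the double knockout with the LAO1 knockout, the loss of IL4i1 in mouse colon that already lacked LAO1. Its members were the arrays whose genotype label was double knockout (3 arrays) or LAO1 knockout (3 arrays), which made 6 of the 12 arrays of the study. All 19572 of 22206 probes that had a gene name in the platform annotation were considered. The mice were healthy males of 12 to 16 weeks kept under a 14-h light cycle, and the RNA came from whole colonic tissue. The LAO1 knockout lacked LAO1 and kept IL4i1, and the double knockout lacked both, so absence of LAO1 was common to the groups compared. The IL4i1 knockout (3 arrays) and the wild type (3 arrays) supplied the same loss with LAO1 present. An effect of the loss below means a difference between genotype groups. Whether those groups differed in more than the deleted gene was not tested. The sources used here do not give the strain, how the alleles were made, or whether an array held RNA of 1 mouse. The p-values therefore rest on the spread from array to array, part of which may be technical. The study set out to learn what lies behind inflammation in the colon of the double knockout.

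IL4I1 and LAO1 are secreted flavoenzymes that oxidise L-amino acids, releasing the keto acid, ammonia and hydrogen peroxide. IL4I1 prefers aromatic amino acids, is made mainly by antigen-presenting cells and B cells, and is itself induced by interferon gamma and interleukin 4. Interferon gamma, released by activated lymphocytes, acts, in part through IRF1, on a set of genes that includes immunity-related GTPases (IRGs), guanylate-binding proteins (GBPs), the machinery of antigen presentation and Ido1, the enzyme that starts tryptophan breakdown along the kynurenine route.

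Values are log2 expression as deposited, between 1.72 and 19.93, so that a difference of 1 means a 2-fold change. Array medians lay between 5.42 and 5.49, and correlations between arrays over all probes between 0.964 and 0.99. On the first principal component (20.2% of the variance) IL4i1 knockout replicate 2, which is not among the 6 compared arrays, stood farthest out. It enters the comparison with LAO1 present and the interaction. Double knockout replicate 1 stood farthest out on the second principal component and double knockout replicate 2 on the third. In double knockout replicate 2 the mean over 15 genes of pancreatic acinar cells was 14.56, against 4.08 to 4.76 on the other 11 arrays. In double knockout replicate 1 Lcn2, an iron-trapping protein of neutrophils and inflamed epithelium, read 9.81, against 3.17 to 3.6 on the other 5 compared arrays.

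The targeted genes could not check the labels. Lao1 was dim in the LAO1 knockout (3.10, 2.68 and 3.24 in replicates 1 to 3) and in the double knockout (3.23, 3.41 and 3.56), and Il4i1 was not analysed here. Of the 20 nearest measured genes around Il4i1 on its chromosome 0 passed the threshold in the comparison, and of the 20 around Lao1 0 passed. The tissue label was borne out by defining genes of colon. The goblet cell mucin Muc2 read 19.93, the top of the scale, on all 6 arrays, the colonocyte chloride exchanger Slc26a3 13.70 to 15.81, and the colonocyte carbonic anhydrase Car1 14.92 to 19.87.

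In the double knockout 8 IRGs, 3 GBPs, 5 genes of MHC class I and 2 of class II were higher than in the LAO1 knockout. So were the mucosal mast cell proteases Mcpt1 and Mcpt2, and Oasl2, H2-Q5 and Lgals4. An oxidase, a stress cofactor, a clock repressor and a sulfotransferase were lower. With limma, 27 of 22206 probes were higher (0.122% of those tested) and 4 lower (0.018%) at an adjusted p under 0.05. Of these, 23 higher and 4 lower carried a gene name. The rises among them spanned 1.58 to 6.13 on the log2 scale. Background was not measured in the values used here, so the size of a rise is uncertain where the LAO1 knockout lay below the array medians, as for Iigp1, Gm4841, Gm12250, Igtp, Gm4951 and Mcpt2. For all 27 genes the 3 double knockout arrays lay wholly beyond the 3 LAO1 knockout arrays, with a gap of at least 0.85. Over all probes 1387 (6.25%) lay wholly above and 1435 (6.46%) wholly below. The 27 genes were chosen by their difference on these same arrays, so their separation is not a further result. At an unadjusted p under 0.05, 779 probes were higher (3.51%) and 809 lower (3.64%), so that far from the threshold both directions were about equally filled. Each count of list members at that level below is to be read beside these shares. Over all named genes the median difference was -0.01.

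**Figure D1:**
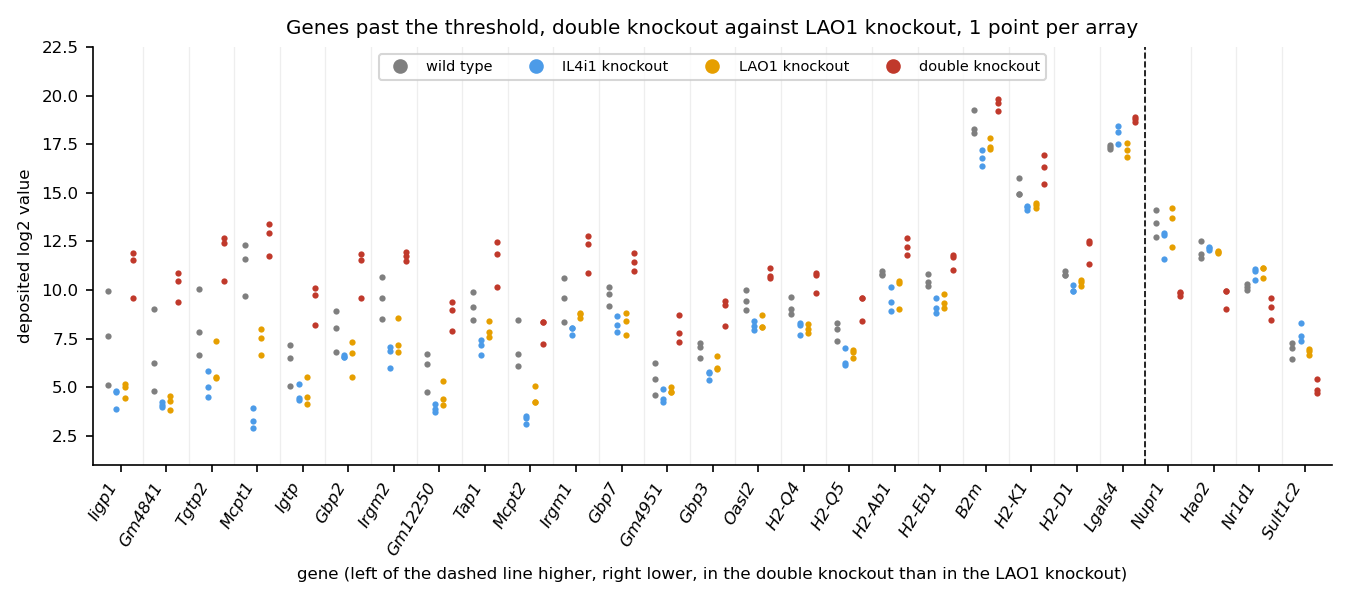
Deposited log2 values of the 27 named genes past the threshold, 1 point per array, with wild type, IL4i1 knockout, LAO1 knockout and double knockout side by side for each gene. In the 23 genes left of the dashed line the double knockout points lie above all LAO1 knockout points, and in the 4 genes right of it they lie below, with a gap of at least 0.85. The genes were chosen on these arrays, and over all probes 6.25% lie wholly above and 6.46% wholly below.

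The number of calls depended on single arrays. It was 11 without LAO1 knockout replicate 3, 13 without double knockout replicate 1, 14 without double knockout replicate 3, 15 without LAO1 knockout replicate 2, 27 without LAO1 knockout replicate 1 and 68 without double knockout replicate 2. Double knockout replicate 2, the array with acinar transcripts, was the lowest of the 3 in 20 of the 23 genes that rose. Of the 27 genes, 10 passed under each of the 13 alternatives tried: Oasl2, Gbp7, Mcpt1, Gm12250, Hao2, Gbp3, Igtp, Irgm2, H2-Q4 and Gm4841. The genes that passed least often were H2-K1, under 6 of the 13, and Iigp1, Lgals4 and H2-D1, under 7.

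The IRGs are interferon-induced GTPases that gather on vacuoles holding intracellular microbes and, in mice, form a large family. They held the 3 largest rises among named genes that passed: 8 of 10 measured members passed, all higher, and the median difference over the 10 was 4.19. Iigp1, an effector GTPase of the family, read 5.03, 5.18 and 4.44 in the LAO1 knockout and 11.92, 9.58 and 11.55 in the double knockout. Every double knockout array exceeded every LAO1 knockout array by at least 4.4, and the difference was 6.13 (SE 0.90, adjusted p = 0.0114). Of the runs that left out a compared array, Iigp1 passed in 1, and with trend and robust options its adjusted p in limma was 0.1275.

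Gm4841, a less studied member of the family, went from 4.57, 4.27 and 3.83 to 10.86, 9.38 and 10.46. Tgtp2, an effector IRG first described in T cells, went from 7.4, 5.45 and 5.52 to 12.42, 10.45 and 12.66. Their differences were 6.01 (SE 0.75, adjusted p = 0.00463) and 5.72 (SE 0.80, adjusted p = 0.00916). For both genes replicate 2 of the double knockout was the lowest of its group and still stood above the LAO1 knockout.

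The regulatory IRGs, which keep the effector GTPases inactive on the cell's own membranes, rose as well. Irgm2 read 8.57, 7.16 and 6.79 in the LAO1 knockout against 11.77, 11.51 and 11.94 in the double knockout, Irgm1 8.80, 8.57 and 8.75 against 12.38, 10.90 and 12.76, and Igtp (Irgm3) 5.52, 4.49 and 4.13 against 10.10, 8.22 and 9.73. The groups did not overlap in any of these genes. The differences were 4.23 for Irgm2 (SE 0.52, adjusted p = 0.0041), 3.31 for Irgm1 (SE 0.51, adjusted p = 0.0167) and 4.64 for Igtp (SE 0.56, adjusted p = 0.0041).

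Gm12250 (Irgb10), which helps break open bacteria together with GBPs, rose by 4.15 (adjusted p = 0.0041), and Gm4951 by 3.12 (adjusted p = 0.00628). The other measured members did not pass: F830016B08Rik differed by 2.15 (adjusted p = 0.245), and Irgc1, a testis form that interferon does not induce, by -0.10. As many as 8 members passed without double knockout replicate 2 and as few as 4 without LAO1 knockout replicate 3, and 5 without LAO1 knockout replicate 2, double knockout replicate 1 or double knockout replicate 3. IRGs are near copies of each other, so 1 transcript may feed several probes, which was not tested.

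The GBPs are larger interferon-induced GTPases that coat and lyse pathogens and their vacuoles. All 6 measured members stood higher in every double knockout array, while over all probes 1387 (6.25%) did so. Of the 6, 3 passed the threshold, and the median difference was 2.56. Gbp7 read 8.80, 8.42 and 7.68 in the LAO1 knockout and 11.88, 11 and 11.43 in the double knockout, a difference of 3.14 (SE 0.34, adjusted p = 0.0041). Gbp2, among the strongest interferon gamma targets of mouse cells, read 7.32, 6.77 and 5.53 against 11.84, 9.60 and 11.55, a difference of 4.46 (SE 0.61, adjusted p = 0.00867). Gbp3 rose by 2.76, from 6.59, 6.00 and 5.93 to 9.44, 8.14 and 9.23 (SE 0.33, adjusted p = 0.0041).

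In Gbp2 and Gbp3 the spread within the double knockout was mostly due to its replicate 2. That array was also the lowest of its group in Gbp7, where the double knockout arrays were about evenly spaced. Gbp4 (2.35, adjusted p = 0.146), Gbp8 (1.46, adjusted p = 0.166) and Gbp9 (0.98, adjusted p = 0.115) did not pass. The number past the threshold was 5 without double knockout replicate 2, and 2 without LAO1 knockout replicate 3 or double knockout replicates 1 or 3. Like the IRGs, GBP genes are close copies and may share signal.

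Promoters of the genes that rose were read for the elements through which interferons act, the interferon-stimulated response element (ISRE), bound by IRF factors, and the gamma-activated site (GAS). RefSeq promoters (build GRCm38.p6, 250 bases before to 50 after a gene's start) were found for 17 of the 23 genes. An ISRE-like match, the letters GAAANNGAAA on either strand, was present in 9 of the 17 (52.9%), against 3.94% of the 15691 genes of the array with an entry and 3.44% of all 32851 promoters of the table. The 9 were 5 IRGs, 3 GBPs and B2m. Members of a family are close copies, so they do not count as 9 separate results. A GAS match, the letters TTCNNNGAA on either strand, was present in 5 of the 17 (29.4%), against 9.02% of the genes of the array with an entry and 8.3% of all promoters. The 5 were 4 IRGs and 1 GBP. Among the 4 genes that fell, 0 held the first motif and 1 the second. The matches describe letters only, and binding was not measured. Windows of 80 bases are shown for 3 IRGs whose motifs sit side by side, for a pair of GBPs and for B2m, each 5′ to 3′ on the gene's strand with matches to either motif in capitals.
Igtp, chr11:58199476-58199555, plus strand: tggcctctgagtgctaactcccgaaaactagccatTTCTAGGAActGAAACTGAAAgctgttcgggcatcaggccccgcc
Irgm2, chr11:58214878-58214957, plus strand: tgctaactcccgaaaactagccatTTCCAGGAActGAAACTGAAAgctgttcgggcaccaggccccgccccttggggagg
Tgtp2, chr11:49064238-49064317, minus strand: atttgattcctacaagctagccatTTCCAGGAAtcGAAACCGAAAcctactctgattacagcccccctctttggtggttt
Gbp7, chr3:142530248-142530327, plus strand: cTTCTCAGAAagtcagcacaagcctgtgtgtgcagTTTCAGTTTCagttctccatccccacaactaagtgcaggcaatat
Gbp3, chr3:142559964-142560043, plus strand: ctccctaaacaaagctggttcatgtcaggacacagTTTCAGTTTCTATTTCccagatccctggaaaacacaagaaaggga
B2m, chr2:122147513-122147592, plus strand: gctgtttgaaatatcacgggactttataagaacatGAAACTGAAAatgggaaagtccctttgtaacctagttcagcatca

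In Igtp, Irgm2 and Tgtp2 a GAS match and an ISRE-like match lay 2 bases apart in the same order, and the windows of Igtp and Irgm2 shared an identical run of 29 bases. In Gbp7 25 bases separated the matches, and in Gbp3 2 ISRE-like matches overlapped. In the windows shown, the ISRE-like matches of the 2 GBPs are written in the opposite orientation to those of the 3 IRGs and of B2m. Orientation and spacing did not divide the families, however. In the window of Gm12250, an IRG not shown, the ISRE-like match is written as in the GBPs and lies 6 bases from a GAS match. Irgm1, another IRG not shown, held 0 GAS matches.

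MHC class I molecules carry peptides from inside the cell to its surface for inspection by CD8 T cells. All 20 measured genes of class I and its peptide supply had a positive difference, with a median of 1.41, and 5 passed: Tap1, H2-Q4, B2m, H2-K1 and H2-D1. Tap1, a subunit of the pump that brings peptides into the endoplasmic reticulum, read 8.43, 7.82 and 7.59 in the LAO1 knockout and 12.47, 10.16 and 11.86 in the double knockout (difference 3.55, SE 0.51, adjusted p = 0.0101). B2m, the light chain of every class I molecule, read 17.80, 17.35 and 17.24 against 19.64, 19.20 and 19.80 (difference 2.08, SE 0.32, adjusted p = 0.0156). The double knockout values of B2m lie close to the top of the scale, where a difference may be compressed.

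The classical heavy chains rose too. H2-K1 rose from 14.23, 14.36 and 14.50 to 16.33, 15.46 and 16.97, by 1.89 (SE 0.33, adjusted p = 0.0486), and H2-D1 from 10.23, 10.49 and 10.43 to 12.44, 11.34 and 12.51, by 1.71 (SE 0.27, adjusted p = 0.0218). Of the nonclassical Qa genes, which share long stretches of sequence, H2-Q4 rose by 2.49 (SE 0.31, adjusted p = 0.0041), from 8.25, 7.99 and 7.80 to 10.77, 9.85 and 10.90. H2-Q5, which stood in no list, rose by 2.45 (adjusted p = 0.0101). Narrowly missing the threshold was the immunoproteasome subunit Psmb8, singled out after its values were seen, at 7.51, 7.06 and 6.74 against 10.79, 8.50 and 10.81 (difference 2.93, adjusted p = 0.0506). At an unadjusted p under 0.05, 17 of the 20 were higher and 0 lower, against 3.51% and 3.64% of all probes. The number past the threshold was 10 without double knockout replicate 2, and 1 without any one of LAO1 knockout replicates 2 and 3 and double knockout replicates 1 and 3.

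MHC class II molecules show peptides taken up from outside to CD4 T cells, on antigen-presenting cells and, under interferon gamma, on gut epithelium. Of 11 measured genes 2 passed, H2-Eb1 and H2-Ab1, and the median difference was 1.71. H2-Eb1, a beta chain, read 9.77, 9.06 and 9.33 in the LAO1 knockout and 11.82, 11.05 and 11.68 in the double knockout (difference 2.13, SE 0.29, adjusted p = 0.00737). H2-Ab1, another beta chain, read 10.47, 9.01 and 10.35 against 12.22, 11.78 and 12.65 (difference 2.27, SE 0.39, adjusted p = 0.0395). Neither gene's groups overlapped.

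The alpha chain H2-Aa (2.35, adjusted p = 0.094) and H2-DMa, a chain of the peptide exchanger (2.33, adjusted p = 0.0915), differed by as much without passing. The class II transactivator Ciita read 6.77, 5.16 and 6.13 against 8.2, 6.88 and 8.12 (difference 1.71, adjusted p = 0.359). The list held 3 calls without double knockout replicate 2 or LAO1 knockout replicate 1 and 0 without any one of the other 4 compared arrays. The mean level of the 22 measured macrophage, monocyte and dendritic cell genes ran from 5.58 to 6.07 in the LAO1 knockout and from 6.11 to 6.58 in the double knockout. Of those 22, 0 passed, 18 had a positive and 4 a negative difference, and the median was 0.35. At an unadjusted p under 0.05, 4 were higher and 0 lower. The 4 were Ccl8 (2.47), Cd14 (1.20), Aif1 (1.08) and Ccr2 (0.87), while the markers Csf1r and Adgre1 differed by 0.28 and 0.24. In bulk tissue more cells of a type and more RNA per cell cannot be told apart, and the part of these cells in the class II result was not tested.

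Genes of the interferon gamma axis itself did not pass. Of 17 measured 13 had a positive and 4 a negative difference, 10 were higher and 2 lower at an unadjusted p under 0.05, and the median difference was 1.0. The 2 lower ones were the cytokine Il18 (-1.60) and the receptor chain Ifngr2 (-0.50). Ifng itself was dim, at 3.84, 3.40 and 3.70 in the LAO1 knockout and 5.51, 4.34 and 4.77 in the double knockout (difference 1.23, SE 0.29, adjusted p = 0.217). Its groups did not overlap, and over all probes 6.25% likewise lay wholly above in the double knockout. Irf1, the factor that relays the signal, read 11.23, 11.82 and 10.72 against 13.84, 12.84 and 13.46 (difference 2.12, SE 0.39, adjusted p = 0.0614), and it passed without double knockout replicate 2 (2.39, adjusted p = 0.0322).

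The CXCR3 ligands, chemokines that draw activated T cells, were spread widely within the double knockout. Cxcl9 read 5.33, 4.83 and 4.05 in the LAO1 knockout and 13.36, 7.46 and 8.06 in the double knockout, a difference of 4.89 (SE 1.17, adjusted p = 0.227). Cxcl10 read 4.36, 4.43 and 3.93 against 7.72, 5.13 and 5.22, a difference of 1.78 (adjusted p = 0.431). In both genes double knockout replicate 1 was far above its group. Without it the difference in Cxcl10 was 0.935 (adjusted p = 0.666) and that in Cxcl9 3.02 (adjusted p = 0.241), which missed the threshold with and without that array. Irf8, an interferon-induced factor of myeloid cells, differed by 1.43 (adjusted p = 0.129), and Il18bp, a secreted inhibitor of interleukin 18, by 1.63 (adjusted p = 0.0951).

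**Figure D2:**
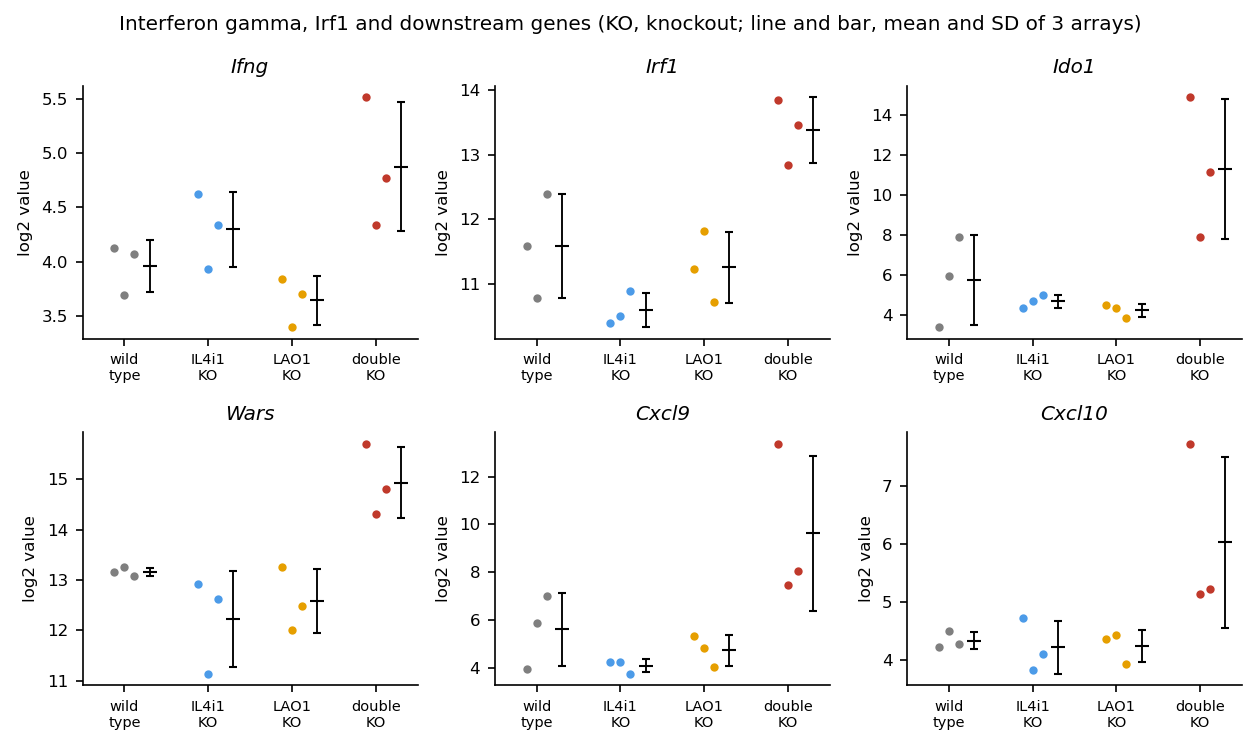
Log2 values of Ifng, Irf1, Ido1, Wars, Cxcl9 and Cxcl10 on each array by genotype, with the mean and SD of 3 arrays beside the points; each panel has its own scale. All 3 double knockout arrays lie above all 3 LAO1 knockout arrays in every panel, as they do for 6.25% of all probes. None of the genes shown passed the threshold. The spread within the double knockout is widest for Ido1 (7.88 to 14.85) and Cxcl9 (7.46 to 13.36).

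Ido1 had the greatest mean difference of the genes named here and did not pass. It read 4.48, 4.37 and 3.85 in the LAO1 knockout and 14.85, 7.88 and 11.14 in the double knockout, a difference of 7.06 (SE 1.34, adjusted p = 0.073). The lowest double knockout array lay 3.40 above the highest LAO1 knockout array, while the double knockout arrays themselves differed by more than that. Without double knockout replicate 2 the difference was 8.76 and passed (adjusted p = 0.00288), and without replicate 1 it was 5.28 (adjusted p = 0.162). Wars, the tryptophanyl-tRNA synthetase that interferon gamma induces alongside Ido1, read 13.26, 12.00 and 12.48 against 15.70, 14.30 and 14.80 (difference 2.35, SE 0.46, adjusted p = 0.09).

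The kynurenine route as a whole was centred on 0. Of 17 measured genes 0 passed, 3 were higher at an unadjusted p under 0.05 (Ido1, Wars and the amino acid transporter Slc7a5), and the median difference was 0.03. The enzymes downstream, Afmid, Kmo, Kynu, Haao and Qprt, differed by -0.20, 0.03, -0.14, 0.29 and -0.22. The receptor for kynurenine-type ligands, Ahr, differed by -0.02, and of its 11 measured genes and targets 0 reached an unadjusted p under 0.05, with Cyp1a1 at -0.02, Cyp1b1 at -0.17 and Tiparp at 0.13.

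Genes that answer mainly to type I interferon, the antiviral interferons, had a smaller median than the IRGs and GBPs. Of 38 measured genes 1 passed, 24 were higher and 0 lower at an unadjusted p under 0.05, and the median difference was 0.77. The one that passed, Oasl2, an OAS-like antiviral protein, read 8.10, 8.12 and 8.70 in the LAO1 knockout against 10.61, 10.73 and 11.14 with both enzymes missing. The difference was 2.52 (SE 0.28, adjusted p = 0.0041), and the SDs within the groups were 0.34 and 0.28. Parp9 (1.59, adjusted p = 0.0596), Parp14 (1.46, adjusted p = 0.0915) and Stat2 (1.24, adjusted p = 0.0915) came next. Of the 38 genes 34 had a positive difference, and the lowest value was that of Mx1, an antiviral GTPase, at -0.40. The list held 3 calls without double knockout replicate 2 and 1 without any other single array.

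Mcpt1 and Mcpt2, chymases stored in the granules of mucosal mast cells, which expand in the gut epithelium during type 2 responses, rose strongly. Mcpt1 read 6.68, 7.55 and 8.02 in the LAO1 knockout and 11.77, 12.95 and 13.41 in the double knockout, 39.2-fold higher (difference 5.29, SE 0.60, adjusted p = 0.0041). Mcpt2 read 4.24, 4.24 and 5.07 against 7.21, 8.36 and 8.35 (difference 3.46, SE 0.50, adjusted p = 0.0111). For these genes double knockout replicate 1, and not replicate 2, was the lowest of its group. Mcpt1 passed in every leave-one-out run, and Mcpt2 missed the threshold without LAO1 knockout replicate 1 (adjusted p = 0.0619), LAO1 knockout replicate 2 (0.0766) or double knockout replicate 3 (0.0716).

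Other mast cell genes had smaller differences, and none passed. The granule carboxypeptidase Cpa3 read 4.74, 4.61 and 4.25 against 5.45, 7.22 and 6.56 (difference 1.88, SE 0.43, adjusted p = 0.177). Genes of connective tissue mast cells were dim and close together, with Cma1 at 0.29, Tpsb2 at 0.24 and Mcpt4 at 0.72. Kit, the stem cell factor receptor of mast cells and of pacemaker cells of the gut, differed by -1.12. Over 19 measured genes of mast cells and eosinophils the median difference was 0.31, with 2 past the threshold, and the eosinophil genes Epx, Prg2 and Siglecf differed by -0.24, 0.08 and -0.30. The mean level of the 19 genes ran from 4.70 to 4.86 in the LAO1 knockout and from 5.34 to 5.75 in the double knockout.

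The 4 genes that fell belong to different functions. Hao2, a peroxisomal oxidase of 2-hydroxy acids that also releases hydrogen peroxide, read 12.00, 11.90 and 11.96 in the LAO1 knockout and 9.01, 9.97 and 9.94 in the double knockout (difference -2.31, SE 0.28, adjusted p = 0.0041). The LAO1 knockout arrays agreed within 0.1, and the groups lay 1.93 apart. Among the 10 measured oxidases of L-amino, hydroxy and monoamine substrates it was the one that passed, and the median of that list was -0.11. Dao and Hao1 differed by 0.02 and 0.04, Maoa by 0.02 and Maob by -0.72.

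Nupr1, a small chromatin cofactor induced by stress through ATF4, read 12.23, 14.23 and 13.68 in the LAO1 knockout and 9.67, 9.91 and 9.87 in the double knockout. It fell by 3.56 on the log2 scale (SE 0.49, adjusted p = 0.00867). The double knockout arrays lay within 0.25 of each other, and the spread came from the LAO1 knockout. None of the other genes of the ATF4 response passed. Among 22 measured ATF4 targets and serine and one-carbon enzymes the median was 0.14. At an unadjusted p under 0.05, 6 were higher and 1 lower, against 3.51% and 3.64% of all probes. The mitochondrial one-carbon enzyme Mthfd1l differed by 1.20 (adjusted p = 0.0915), Shmt2 by 1.26, the serine synthesis enzyme Phgdh by 1.27, and Ddit3 by 0.00. Nupr1 missed the threshold without LAO1 knockout replicate 2 (adjusted p = 0.0536), LAO1 knockout replicate 3 (0.0742), double knockout replicate 1 (0.0508) or double knockout replicate 3 (0.0523).

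Nr1d1, the nuclear receptor REV-ERB alpha that represses Arntl in the circadian clock, read 10.63, 11.12 and 11.11 against 8.47, 9.61 and 9.11 and fell by 1.89 (SE 0.28, adjusted p = 0.0114). Of 18 clock genes 3 were higher and 3 lower at an unadjusted p under 0.05. The activators Arntl and Npas2 differed by -1.07 and -1.21, the repressors Per2 and Per1 by 1.22 and 0.98, and the outputs Dbp and Tef by -0.13 and 0.07. None of these other clock genes passed, and the sources used here do not give the hour at which mice were sampled. Sult1c2, a cytosolic sulfotransferase, read 6.84, 6.95 and 6.64 against 5.44, 4.84 and 4.71 and fell by 1.81 (SE 0.29, adjusted p = 0.0218).

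The enzymes of xenobiotic metabolism, to which Sult1c2 belongs, had the lowest median of the 40 lists, -0.64. Of 28 measured genes 25 had a negative difference, and 1 passed. At an unadjusted p under 0.05, 0 were higher and 7 lower, against 3.51% and 3.64% of all probes. Cyp2d34 read 12.17, 12.11 and 12.41 against 8.42, 10.85 and 10.25 (difference -2.39, adjusted p = 0.248), and the glutathione transferase Gstk1 differed by -0.91. Without LAO1 knockout replicate 2 the median of the list was -0.20.

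**Figure D3:**
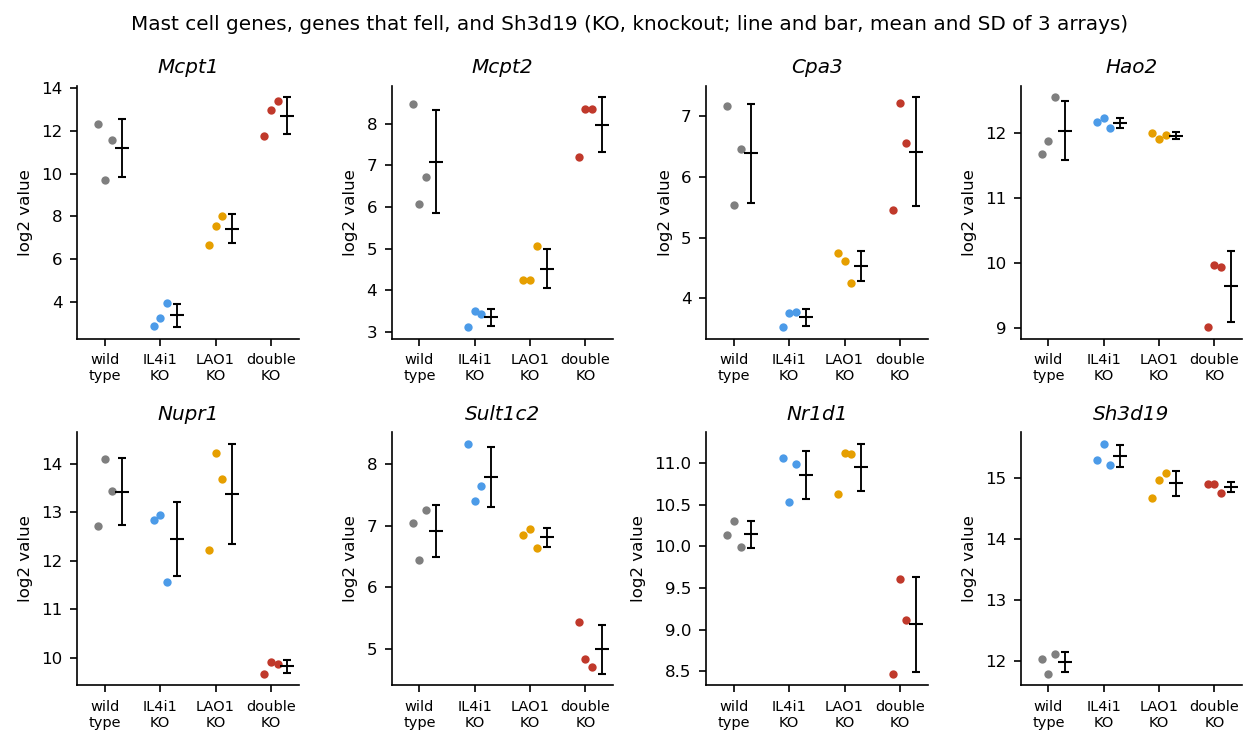
Log2 values on each array by genotype for Mcpt1, Mcpt2, Cpa3, the 4 genes that fell (Hao2, Nupr1, Sult1c2 and Nr1d1) and Sh3d19, with the mean and SD of 3 arrays; each panel has its own scale. Mcpt1 and Mcpt2 are low in both single knockouts, the 4 falls are lowest in the double knockout, and Sh3d19 is at one level in the 3 knockout genotypes, 14.67 to 15.55, above the wild type at 11.79 to 12.11.

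Lgals4, which encodes galectin-4 of the colonocyte, was the gene of smallest rise among the calls. It read 16.86, 17.54 and 17.20 in the LAO1 knockout and 18.91, 18.64 and 18.79 in the double knockout (difference 1.58, SE 0.25, adjusted p = 0.0218). The absorptive colonocyte genes leaned weakly the other way: of 26 measured, Lgals4 among them, 16 had a negative and 9 a positive difference. At an unadjusted p under 0.05, 1 was higher and 6 lower. The median of the list was -0.23, but -0.036 without LAO1 knockout replicate 2 and -0.035 without double knockout replicate 3. The adhesion molecule Ceacam20 differed by -2.15 (adjusted p = 0.162) and the magnesium channel Trpm6 by -1.86 (adjusted p = 0.177). The groups did not overlap in these genes, and over all probes 1435 (6.46%) were likewise lower on every double knockout array.

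Goblet cell and mucus genes had a median difference of -0.51, with 17 of 19 negative, 4 lower at an unadjusted p under 0.05 and 0 past the threshold. Tff3, a secreted peptide that protects the mucosa, read 16.99, 17.90 and 18.04 against 16.29, 16.30 and 16.30 (difference -1.35, adjusted p = 0.615). Ang4, an antimicrobial ribonuclease of Paneth and goblet cells, read 19.83, 19.77 and 19.93 against 17.92, 18.77 and 19.71 (difference -1.04, adjusted p = 0.692). Of 20 junction genes 5 were lower at an unadjusted p under 0.05 and 0 passed, with claudin Cldn8 at -1.62 (adjusted p = 0.482). Tff3 and Ang4 lie near the top of the scale on the LAO1 knockout arrays, and Muc2 gave no difference because it was at the top on every array.

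DNA replication and mitosis genes, which mark dividing crypt cells, had a positive difference in all 29 measured members. The median was 0.62, and 0 passed. At an unadjusted p under 0.05, 10 were higher, against 3.51% of all probes. The ribonucleotide reductase subunit Rrm2 read 7.13, 6.80 and 7.33 against 9.26, 7.65 and 8 (difference 1.22, adjusted p = 0.379). Double knockout replicate 1 was the highest array, with a mean over the list of 8.88, against 7.61 and 7.97 on replicates 2 and 3 and 7.44 to 7.59 in the LAO1 knockout. Without that array the median of the list was 0.22.

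The T cell and cytotoxic lymphocyte genes were dim, and 0 of 23 passed. Their mean level ran from 4.30 to 4.45 in the LAO1 knockout and from 4.66 to 4.96 in the double knockout. At an unadjusted p under 0.05, 6 were higher and 0 lower, against 3.51% and 3.64% of all probes. Among them Cd3e, the signalling chain of the T cell receptor complex, differed by 0.86 (adjusted p = 0.442) and the cytotoxic protease Gzmb by 1.14 (adjusted p = 0.323). Gzma and Itgae differed by 1.07 and 0.80, while the markers Cd3g and Cd8b1 differed by -0.09 and 0.01. Of the 23 genes 19 had a positive and 4 a negative difference, and the median was 0.32. The part of these cells in the results on interferon genes was not tested.

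Amino acid uptake and breakdown, the surroundings of the deleted enzymes, held 0 calls. Of 25 transporters 4 were higher and 3 lower at an unadjusted p under 0.05, against 3.51% and 3.64% of all probes. The glutamine transporter Slc1a5 differed by -1.02 (adjusted p = 0.333). The carrier of large neutral amino acids Slc7a5 read 9.30, 9.47 and 9.90 against 12.09, 13.00 and 9.11. The double knockout arrays of Slc7a5 thus fell on both sides of the LAO1 knockout. Of 13 enzymes of phenylalanine and tyrosine breakdown 1, Got1, reached an unadjusted p under 0.05 (0.65), and the median was -0.13. Among 28 NADPH oxidases and enzymes of peroxide defence 1 was higher, Ncf4, which is near the share over all probes (3.51%). The median of that list was 0.10, with catalase (Cat) at -0.46.

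Some programs were present on a single double knockout array. The cytokine Il1b read 10.79 on replicate 1 against 5.71 and 6.24 on the others and 4.50 to 5.08 in the LAO1 knockout (difference 2.86, adjusted p = 0.512, and 1.25 without replicate 1, adjusted p = 0.561). The antimicrobial lectin Reg3b read 18.59 on replicate 1, against 6.52 and 4.75 on replicates 2 and 3 and 5.29, 12.46 and 4.88 in the LAO1 knockout. Pancreatic genes read high on replicate 2 alone, with the amylase Amy2a5 at 19.63 and the chymotrypsinogen Ctrb1 at 18.25 against 4.84 to 5.28 and 2.45 to 2.92 on the other compared arrays. The median difference of 3.16 over the acinar list therefore rests on that array (-0.11 without it), and 0 of its 15 members passed.

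**Figure D4:**
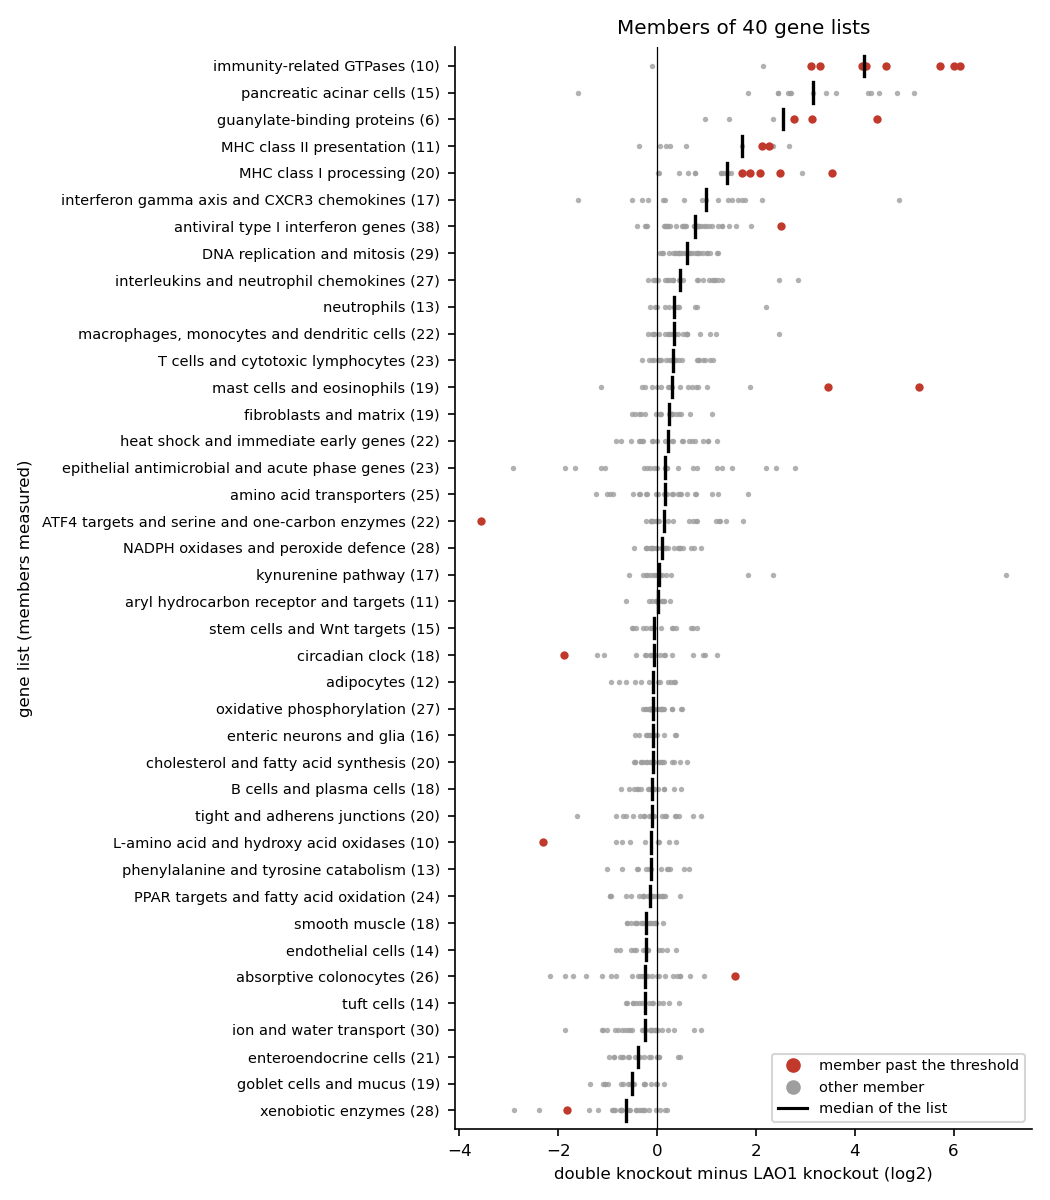
Difference between double knockout and LAO1 knockout (log2) for the measured members of 40 gene lists, 1 point per gene, with the lists ordered by their median (black bar) and members past the threshold in red. The IRGs, GBPs and the MHC lists stand at the top with medians of 4.19, 2.56, 1.71 and 1.41, the acinar list beside them rests on 1 array, and the xenobiotic enzymes stand lowest at -0.64.

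The same loss of IL4i1 was also measured with LAO1 present, in the IL4i1 knockout against wild type. These arrays do not enter the difference between double knockout and LAO1 knockout, though the fit takes its estimate of spread from all 12 arrays. There 3 of 22206 probes passed (0.0135%): Sh3d19 was higher, and Mcpt1 and Mcpt2 were lower. At an unadjusted p under 0.05 the number was 1684, 721 higher and 963 lower, and the median difference over all probes was 0.03. Without wild type replicate 2, 5 probes passed. Of the 23 genes that rose with LAO1 absent, 22 had a difference below 0 with LAO1 present, from -7.82 to 0.68 over the 23, the exception being Lgals4. Apart from Mcpt1 and Mcpt2 none of the 23 passed there. Most of them are IRGs, GBPs and MHC genes, which may move together, so they do not count as 22 separate results.

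The test of the difference between these effects, the interaction, called 51 probes (0.23%), of which 46 carried a name, 41 with a higher and 5 with a lower effect of the loss when LAO1 was absent. The interaction uses the double knockout and LAO1 knockout arrays again, so a gene chosen for its difference between them is favoured in it. Mcpt1 averaged 11.19 in wild type, 3.36 in the IL4i1 knockout, 7.42 in the LAO1 knockout and 12.71 in the double knockout. The IL4i1 knockout was thus 7.82 below wild type, and the double knockout 5.29 above the LAO1 knockout. The interaction was 13.12 (adjusted p = 1.62e-05).

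Irgm2 followed the same order at smaller size. It read 8.52, 9.61 and 10.68 in wild type and 7.09, 5.99 and 6.84 in the IL4i1 knockout, a difference of -2.96 against 4.23 with LAO1 absent, and the interaction was 7.20 (adjusted p = 0.000953). In Oasl2 the differences were -1.29 and 2.52 (interaction 3.81, adjusted p = 0.000953), and in Mcpt2 -3.74 and 3.46 (interaction 7.20, adjusted p = 0.000953). With LAO1 present the differences of Irgm2 (adjusted p = 0.122) and Oasl2 (adjusted p = 0.353) did not pass by themselves, and those of Mcpt1 (6.75e-05) and Mcpt2 (0.0317) did.

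Sh3d19, an adaptor with SH3 domains, showed an interaction of the other sign. It read 12.03, 11.79 and 12.11 in wild type, 15.28, 15.55 and 15.21 in the IL4i1 knockout, 14.67, 14.96 and 15.08 in the LAO1 knockout and 14.90, 14.89 and 14.75 in the double knockout. The IL4i1 knockout was thus 3.37 above wild type, whereas the difference with LAO1 absent was -0.06 (SE 0.19), and the interaction was -3.43 (adjusted p = 9.47e-05). Every knockout genotype stood above wild type, also the LAO1 knockout, which kept IL4i1, and the reason was not tested. Hao2 differed by 0.13 with LAO1 present against -2.31 with LAO1 absent (interaction -2.44, adjusted p = 0.0177). For Nupr1 the differences were -0.97 and -3.56, and the interaction did not pass (-2.59, adjusted p = 0.279). For Lgals4 the differences were 0.68 and 1.58, and the interaction did not pass either (0.90, adjusted p = 0.608).

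**Figure D5:**
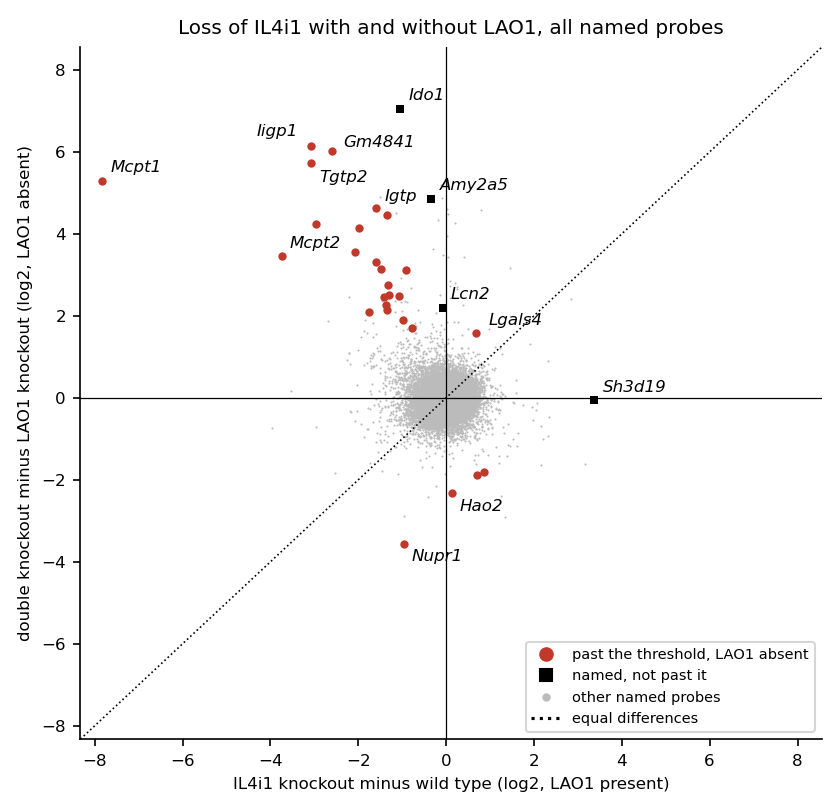
Effect of IL4i1 loss on each named probe (log2), with LAO1 present on the horizontal axis (IL4i1 knockout minus wild type) and LAO1 absent on the vertical axis (double knockout minus LAO1 knockout); red points passed the threshold with LAO1 absent, black squares are labelled genes that did not, and the dotted line marks equal effects. Of the 23 red points above 0 on the vertical axis 22 lie left of 0 on the horizontal axis, with Mcpt1 at -7.82 and 5.29. Over all named probes the median on the horizontal axis is 0.02.

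In wild type the 23 genes that rose averaged between the genotypes compared. In the LAO1 knockout all 23 genes averaged below wild type, with differences of -3.77 to -0.16, and in the double knockout all 23 averaged above it, by 0.88 to 3.66. These comparisons with wild type share the LAO1 knockout or double knockout arrays with the one above. Against wild type 0 of the 23 rises passed, while Nupr1 and Hao2 of the 4 falls did. For Iigp1 the wild type arrays themselves read 5.12, 7.62 and 9.93, a range that spans most of the distance between the LAO1 knockout and the double knockout. Gm4841 (4.80, 6.23 and 9.04) and Tgtp2 (6.68, 7.83 and 10.05) were likewise spread in wild type.

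Of the probes past the threshold, 4 had no gene name here, all higher in the double knockout. TC1100002643.mm.2 read 8.72, 6.96 and 6.60 in the LAO1 knockout and 14.89, 12.63 and 14.66 in the double knockout, and its difference of 6.63 (SE 0.87, adjusted p = 0.00653) exceeded that of every named gene that passed. TC0100000375.mm.2 differed by 3.12 (adjusted p = 0.0177).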

How the data were processed

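Per the labels' protocols, 4 mice were chosen per genotype, RNA was extracted from colon with ISOGEN II, and biotin-labelled cRNA from 6 ug was hybridised to Affymetrix arrays. Transcriptome Analysis Console is the tool in the submitters' processing notes. The authors deposited log2 values for 22206 probes on 12 arrays. The summarisation, normalization and genome build are not given in the sources used here. The values were used as deposited. Names came from the platform annotation: 19572 probes had 1 symbol and 2634 none, and 55 genes had more than 1 probe, each tested, with the one of highest mean used in lists.

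Differences were tested with limma 3.58.1 (R 4.3.3; lmFit and eBayes) in 1 fit over all 12 arrays with 8 residual degrees of freedom. Two-sided p-values were adjusted over all probes after Benjamini and Hochberg, and the threshold was an adjusted p of 0.05. The interaction was the effect of IL4i1 loss with LAO1 absent less that with LAO1 present. The fit was tested on simulated data. The 40 gene lists are described by counts and medians. Members and lists were chosen with earlier results of these data known.

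The rule for named genes took Il4i1 (not analysed here) and Lao1, the 15 largest rises and falls past the threshold (filled up to 10 falls with those of smallest p), up to 4 members of smallest p and all members past the threshold of each list, 13 genes always named (among them Ido1, Ifng and Nupr1), and the 5 probes of smallest p in the interaction. Other members, chosen after their values were seen, are named to describe a list. Alternatives were the compared arrays only, each array left out, a replicate block, the 13321 probes above the 40th percentile, quantile normalization, equal medians, trend and robust options, and named probes only. For arrays, their number limits the precision. Promoter sequences are from RefSeq (GRCm38.p6). Figures were drawn with matplotlib 3.10.9.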

Additional observations from a re-analysis of the deposited data

Results flagged for a closer look

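For 34 of the named genes the effect of IL4i1 loss with LAO1 absent differed from that with LAO1 present by the test of the difference itself (limma's interaction, adjusted p under 0.05). The values that follow are that difference on the log2 scale. Among the IRGs they were Iigp1 (9.22), Tgtp2 (8.80), Gm4841 (8.60), Irgm2 (7.20), Igtp (6.24), Gm12250 (6.13), Irgm1 (4.91) and Gm4951 (4.03). Among the GBPs they were Gbp2 (5.79), Gbp7 (4.62), Gbp3 (4.08) and Gbp9 (2.00). Antigen presentation contributed Tap1 (5.62), H2-Q5 (3.87), B2m (3.84), H2-Aa (3.82), H2-Ab1 (3.64), H2-Q4 (3.56), H2-Eb1 (3.47), H2-K1 (2.86) and H2-D1 (2.49). Mast cell genes contributed Mcpt1 (13.12), Mcpt2 (7.20) and Cpa3 (4.57), with the widest difference of all in Mcpt1. Other interferon genes were Oasl2 (3.81), Irf1 (3.12), Parp9 (2.31), Parp14 (2.20) and Stat2 (1.94), and the monocyte chemokine Ccl8 stood at 4.67. The effect was lower with LAO1 absent in Hao2 (-2.44), Nr1d1 (-2.60), Sult1c2 (-2.69) and Sh3d19 (-3.43). Gbp9, H2-Aa, Irf1, Parp9, Parp14, Stat2, Cpa3, Ccl8 and Sh3d19 did not pass in the double knockout against the LAO1 knockout itself. Without double knockout replicate 2 the interaction called 74 probes, against 51 with all arrays.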

How the results depend on the processing

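No called value changed sign under the alternatives run. Leaving out 1 array at a time, the double knockout against the LAO1 knockout gave 11 to 68 probes past the threshold in place of 31, with 10 to 64 higher in place of 27 and 1 to 4 lower in place of 4; fewer arrays were fitted, and what sets each array apart was not tested. The interaction gave 37 to 74 in place of 51, and the IL4i1 knockout against wild type 2 to 5 in place of 3. With trend and robust options the last count was 8, and the cause was not tested. The other alternatives for the main comparison gave 26 to 43, within 1.5 times of 31. Replicate numbers did not pair the arrays (correlations of same-numbered deviations -0.0831, -0.023 and 0.086), and with a replicate block 43 probes passed, 30 of them shared with the 31, while the interaction gave 60 and the IL4i1 knockout 3. Restricting the interaction to the compared arrays changes nothing, since it uses all 12. Over named genes, 2083 values under an alternative kept their direction and side of the threshold, 78 lost significance, 20 gained it, and 4 (in Amy2a5, S100a8, Aldh3a1 and Sh3d19, none of them called) crossed 0. Of list medians 505 stayed within the replicate spread and 15 did not. Signal limits dim genes such as Lao1 and Ifng, and the top of the scale limits Muc2 and B2m.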
